A study of Mus musculus with 11 samples.

Results

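HL-1 cells, a line of mouse atrial cardiomyocytes that keeps many features of the adult heart muscle cell, were compared after treatment with transforming growth factor β2 (TGF-β2) and without it. The TGF-β2 group comprised 4 arrays of cells kept for 23 h with TGF-β2 at 10 ng/mL in medium without serum, and the control group comprised 4 arrays of untreated cells kept in the same medium with no growth factor for 23 h. These are 8 of the 11 cell arrays of the series, and the other 3 hold cells given PDGF BB. RNA of each array came from 1 culture flask, and all flasks were of the same cell line. A transcript here is 1 probe of the MouseRef-8 Beadchip, and it was tested when its detection p-value, which sets its signal against the negative control beads, was under 0.05 on at least 3 of the 8 arrays. This left 12431 of 25697 transcripts. Arrays 1 and 2 of both groups lay on the first chip and arrays 3 and 4 on the second, with same-numbered arrays side by side, so that the same-numbered arrays form 4 pairs.

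TGF-β2 is a secreted cytokine that binds a complex of type II and type I receptors, with betaglycan as a co-receptor. The type I receptor phosphorylates SMAD2 and SMAD3, which join SMAD4, enter the nucleus and act on target genes, among them genes of the matrix and of the pathway's own inhibitors such as SMAD6 and SMAD7. In the heart the pathway is known for fibrosis and for hypertrophic growth of cardiomyocytes. The comparison therefore addresses which transcripts of a cultured cardiomyocyte differ after about a day of this stimulus.

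No transcript passed the test between TGF-β2-treated and control cells. With limma and Benjamini-Hochberg adjustment, 0 of 12431 transcripts were called higher (0%) and 0 were called lower (0%), and the smallest adjusted p was 0.9999. With the replicate number as a block, again 0 were called in either direction, and the smallest adjusted p was 0.805. At an unadjusted p under 0.05, 142 transcripts were higher with TGF-β2 (1.14%) and 125 were lower (1.01%), 267 in all (2.15%). In the blocked fit these counts were 367 (2.95%) and 387 (3.11%), 754 in all (6.07%). The counts with no block depended on the third TGF-β2 array: without it, 326 and 398 transcripts had an unadjusted p under 0.05, and still 0 were called. The blocked counts also moved with other arrays, to 465 and 607 without pair 3 and to 246 and 285 without pair 4.

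The size of the differences was small on the log2 scale. The median log2 fold change over the tested transcripts was -0.0028, the median absolute value was 0.10, and 95% of the absolute values lay below 0.37. A 95% interval inside a 2-fold change in both directions was found for 96.7% of the tested transcripts in the fit with no block and for 98.4% in the blocked fit, with 413 transcripts outside in the fit with no block. Median standard errors of the log2 fold change were 0.18 with no block and 0.13 with the block. The median SD over arrays was 0.25 in the TGF-β2 group and 0.23 in the control group. Among the 10158 transcripts detected on all 8 arrays, the median SD between arrays was 0.23, against a median standard error between beads of 0.087. A single tested transcript (0.00804%) differed by 2-fold or more between the group means, that of the myoglobin gene Mb, and its arrays overlapped.

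**Figure D1:**
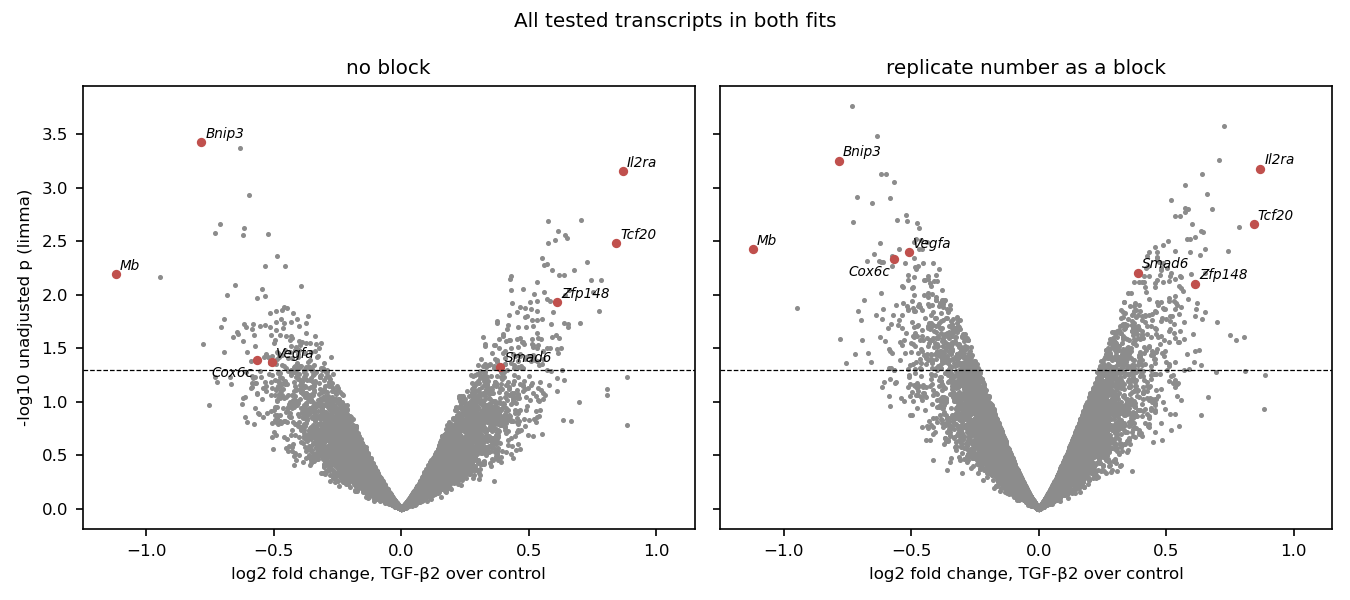
Each point is 1 of the 12431 tested transcripts, with the log2 fold change of TGF-β2 over control on the x axis and -log10 of limma's unadjusted p on the y axis, without a block on the left and with the replicate number as a block on the right. The dashed line marks an unadjusted p of 0.05 and red points mark the 8 transcripts drawn by array further on. More points lie above the line in the blocked fit (754 against 267), and none was called in either.

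The differences of the pairs were weakly correlated with each other. Over the 12431 transcripts, the log2 differences of 2 pairs had Pearson correlations of 0.060 (pairs 1 and 2), -0.056 (pairs 1 and 3), 0.19 (pairs 1 and 4), -0.054 (pairs 2 and 3), 0.11 (pairs 2 and 4) and -0.082 (pairs 3 and 4). These are correlations across transcripts of arrays normalized together, given as a description. A difference of at least 2-fold was found for 114 transcripts in pair 1, 467 in pair 2, 44 in pair 3 and 138 in pair 4, and for 0 in all 4 pairs. Pair 3 was negatively correlated with each of the others. The same direction in 4 of 4 pairs was found for 812 transcripts that were higher (6.53%) and 851 that were lower with TGF-β2 (6.85%), 1663 in all (13.4%). The smallest two-sided p that a sign-flip permutation test can give with 4 pairs is 0.125, so no single transcript can pass on the pairs alone. The same value is the share that would keep 1 direction in 4 of 4 pairs if signs were random, close to the 13.4% found.

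Measures of the arrays as a whole overlapped between the groups. The number of transcripts with a detection p-value under 0.05 ranged over 11401 to 12455 on the TGF-β2 arrays and 11784 to 12353 on the control arrays (exact permutation p = 0.743), and the mean non-normalized signal over 528 to 846 and 589 to 716 (exact permutation p = 0.886, where the smallest possible is 0.0286). The third TGF-β2 array had the most detected transcripts and the highest mean signal of all 8. Of markers of heart muscle, 8 of the 9 with a probe were tested, and their summed normalized signal was 80061 to 89814 with TGF-β2 and 83391 to 89723 in control cells. Other cell types were tested for 2 of 12 fibroblast markers (Vim and Ddr2, summed signal 4303 to 4768 with TGF-β2 and 3710 to 5088 in control cells), 6 of 10 smooth muscle markers (70813 to 78300 and 71734 to 74348, most of it Acta2), 4 of 9 endothelial markers (2443 to 3361 and 2858 to 3810) and 1 of 7 leukocyte markers. The fibroblast genes Col1a1, Col1a2, Dcn and Postn were detected on 0 of the 8 arrays.

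Promoter sequences are shown for Smad6 and Bnip3, the pathway gene and the transcript of lowest unadjusted p in the fit with no block. Bnip3 passed the detection filter only through the control arrays. Each sequence runs from 250 bases before to 50 bases after the start of the gene in the RefSeq annotation of GRCm38.p6. Both genes lie on the minus strand, Smad6 at chr9:64022010-64022309 and Bnip3 at chr7:138909457-138909756. Capitals mark GTCTAGAC in Smad6, the palindrome known as a SMAD binding element, and CACGTG in Bnip3, which holds ACGTG, the core of the element bound by hypoxia-inducible factors, on either strand (CACGT on the other), with the copies overlapping. The printed Smad6 sequence also holds ACGTG 2 times, left in lower case, so this motif does not set Bnip3 apart from it.
Smad6: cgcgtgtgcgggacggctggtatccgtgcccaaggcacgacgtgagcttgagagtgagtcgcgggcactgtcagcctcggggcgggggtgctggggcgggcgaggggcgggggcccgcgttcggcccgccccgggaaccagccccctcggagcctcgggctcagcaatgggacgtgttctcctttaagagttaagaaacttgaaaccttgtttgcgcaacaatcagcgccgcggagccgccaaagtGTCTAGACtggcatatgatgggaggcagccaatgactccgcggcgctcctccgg
Bnip3: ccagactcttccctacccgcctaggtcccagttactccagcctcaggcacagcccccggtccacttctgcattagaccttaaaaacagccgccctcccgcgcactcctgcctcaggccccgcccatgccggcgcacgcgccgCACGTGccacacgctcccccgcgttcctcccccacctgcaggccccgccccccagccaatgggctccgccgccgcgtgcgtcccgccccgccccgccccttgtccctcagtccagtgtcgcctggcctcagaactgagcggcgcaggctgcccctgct
Of 32851 RefSeq promoters of this length, 70 hold GTCTAGAC (0.213%) and 6447 hold ACGTG on either strand (19.6%). A match is a description of the letters and not of a bound site.

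Of the ligands of the TGF-β family and their binding proteins, 8 of 17 genes with a probe were tested and 0 passed the test in either fit. Their log2 fold changes were above 0 for 7 and below 0 for 1, with a median of 0.10, where 49.1% of all tested transcripts were above 0. Tgfb2, which encodes the cells' own TGF-β2, had log2 signals of 6.94, 7.16, 7.76 and 6.97 with TGF-β2, against 7.34, 6.36, 7.47 and 7.56 in control cells. The ranges of the groups overlapped in part, and the log2 fold change was 0.02 (95% interval -0.59 to 0.63). Tgfb1 and Tgfb3, for the other TGF-β isoforms, had log2 fold changes of 0.13 (-0.46 to 0.72) and -0.03 (-0.58 to 0.53). Inhba, the βA subunit of activin, had the largest difference of the ligands, with log2 signals of 10.55, 11.14, 10.78 and 10.32 with TGF-β2, against 10.71, 9.50, 10.73 and 9.69 in control cells. Its log2 fold change of 0.54 (95% interval -0.12 to 1.20) came mostly from pair 2, where the difference was 1.64.

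Of the receptors, 7 of 14 genes were tested, 3 above and 4 below 0, with a median of -0.02. Tgfbr1, the type I receptor, was detected on all 8 arrays at 2 of its 4 probes, with log2 fold changes of 0.0072 (95% interval -0.31 to 0.32) and 0.13 (-0.26 to 0.53), and on 0 of 8 at the other two. Neither probe of Tgfbr2, the type II receptor, was detected on any of the 8 arrays, and no detection p-value of theirs was below 0.192. This value is a property of these probes at this signal and sets no upper limit on the receptor. The co-receptor betaglycan, Tgfbr3, was detected on all arrays at 1 of 2 probes, with a log2 fold change of 0.10 (95% interval -0.30 to 0.50).

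Of the SMADs and their regulators, 14 of 20 genes with a probe were tested, with 8 above and 6 below 0 and a median of 0.05. At an unadjusted p under 0.05, 1 of the 14 was higher in the fit with no block, beside 1.14% of all tested transcripts, and 1 was higher and 2 were lower in the blocked fit, beside 2.95% and 3.11%. In 4 of 4 pairs, 1 of the 14 was higher and 5 were lower, beside 6.53% and 6.85% of all tested transcripts.
Smad6, an inhibitory SMAD, had log2 signals of 8.004, 7.97, 7.45 and 8.004 with TGF-β2, against 7.60, 7.62, 7.15 and 7.51 in control cells. Within every pair the TGF-β2 array was the higher, by 0.40, 0.36, 0.30 and 0.50, while the third array of both groups was the lowest of its group, so that the groups overlapped. The log2 fold change was 0.39 ± 0.17 (SE, n = 4 each, 95% interval 0.0069 to 0.77, adjusted p = 0.9999). In the blocked fit its interval was 0.15 to 0.63 (adjusted p = 0.805). The second Smad6 probe gave 0.40 (95% interval -0.09 to 0.89), with 3 of 4 pairs higher. Both probes therefore had the same size of difference, and neither was called.

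Smurf2, a ubiquitin ligase that marks receptors and SMADs for degradation, differed the other way. Its log2 signals were 6.41, 6.69, 5.98 and 6.56 with TGF-β2, against 6.84, 7.13, 6.61 and 6.57 in control cells, and the log2 fold change was -0.38 (95% interval -0.80 to 0.04, and -0.68 to -0.08 with the block). All 4 pairs were lower, pair 4 by only 0.01. Trim33, which binds and ubiquitinates SMAD4, had -0.27 at its brightest probe (95% interval -0.52 to -0.01 with the block), and 0.05 and -0.11 at its other tested probes, so its probes did not share a direction. Skil, the SMAD co-repressor SnoN, had -0.23 (95% interval -0.59 to 0.12). The signal transducers Smad2, Smad3 and Smad4 had -0.15 (-0.58 to 0.29), 0.19 (-0.18 to 0.56) and 0.16 (-0.19 to 0.52). Pmepa1, an inhibitor of receptor signalling that is itself a target of the pathway, had log2 signals of 5.56, 6.58, 6.85 and 5.95 with TGF-β2, against 5.88, 5.50, 6.11 and 5.75 in control cells. Pair 1 was lower and the others were higher, and the log2 fold change was 0.42 (95% interval -0.16 to 1.01). The lowest of these signals lay near the detection limit.

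Of 35 TGF-β/SMAD target genes with a probe, 17 were tested and 12 were detected on 0 of the 8 arrays, among them Tgfbi, Postn, Lox, Id1, Id3, Thbs1, Col1a1 and Col1a2. Of the 17, 9 were above and 8 below 0 with a median of 0.04, 0 passed the test, and 14 had a 95% interval inside a 2-fold change.
Acta2, the smooth muscle actin used as a marker of the TGF-β response in fibroblasts, had log2 signals between 15.76 and 15.87 with TGF-β2 and between 15.80 and 15.87 in control cells at its brightest probe. Quantile normalization gave equal values in pairs 2, 3 and 4 at this probe because its rank there was equal, so a difference could not be read from it. The other 3 probes gave 0.24 (95% interval -0.05 to 0.53), 0.16 (-0.13 to 0.44) and -0.00096 (-0.30 to 0.30). Tagln, transgelin, had log2 signals of 8.56, 8.60, 7.63 and 8.56 with TGF-β2, against 8.13, 8.43, 7.94 and 7.34 in control cells, and a log2 fold change of 0.38 (95% interval -0.22 to 0.98). The third TGF-β2 array was the lowest of its group and below its pair.

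Ccn2, connective tissue growth factor, had a log2 fold change of -0.12 (95% interval -0.48 to 0.25). Its relative Ccn1 gave -0.46, -0.08 and -0.27 at 3 probes, of which the first had a 95% interval of -0.82 to -0.09 with the block and none passed the adjustment. Id2, an inhibitor of basic helix-loop-helix factors, gave 0.38 (-0.12 to 0.88) at the brighter probe and 0.03 at the other. The cell cycle inhibitor Cdkn1a gave 0.07, 0.04 and 0.17 at 3 probes, and the AP-1 gene Junb 0.08 (95% interval -0.25 to 0.42). Tsc22d1, a leucine zipper protein first found as a TGF-β-stimulated clone, was higher in 4 of 4 pairs with a log2 fold change of 0.24 (-0.17 to 0.65).
Atf3, a stress-induced transcription factor, had the largest difference of the list. Its log2 signals were 7.02, 7.26, 8.26 and 6.61 with TGF-β2, against 8.01, 8.10, 8.30 and 7.42 in control cells. All 4 pairs were lower with TGF-β2, pair 3 by 0.04 and the others by 0.81 to 0.997, and the groups overlapped. The log2 fold change was -0.67 (95% interval -1.37 to 0.03, and -1.07 to -0.28 with the block).

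**Figure D2:**
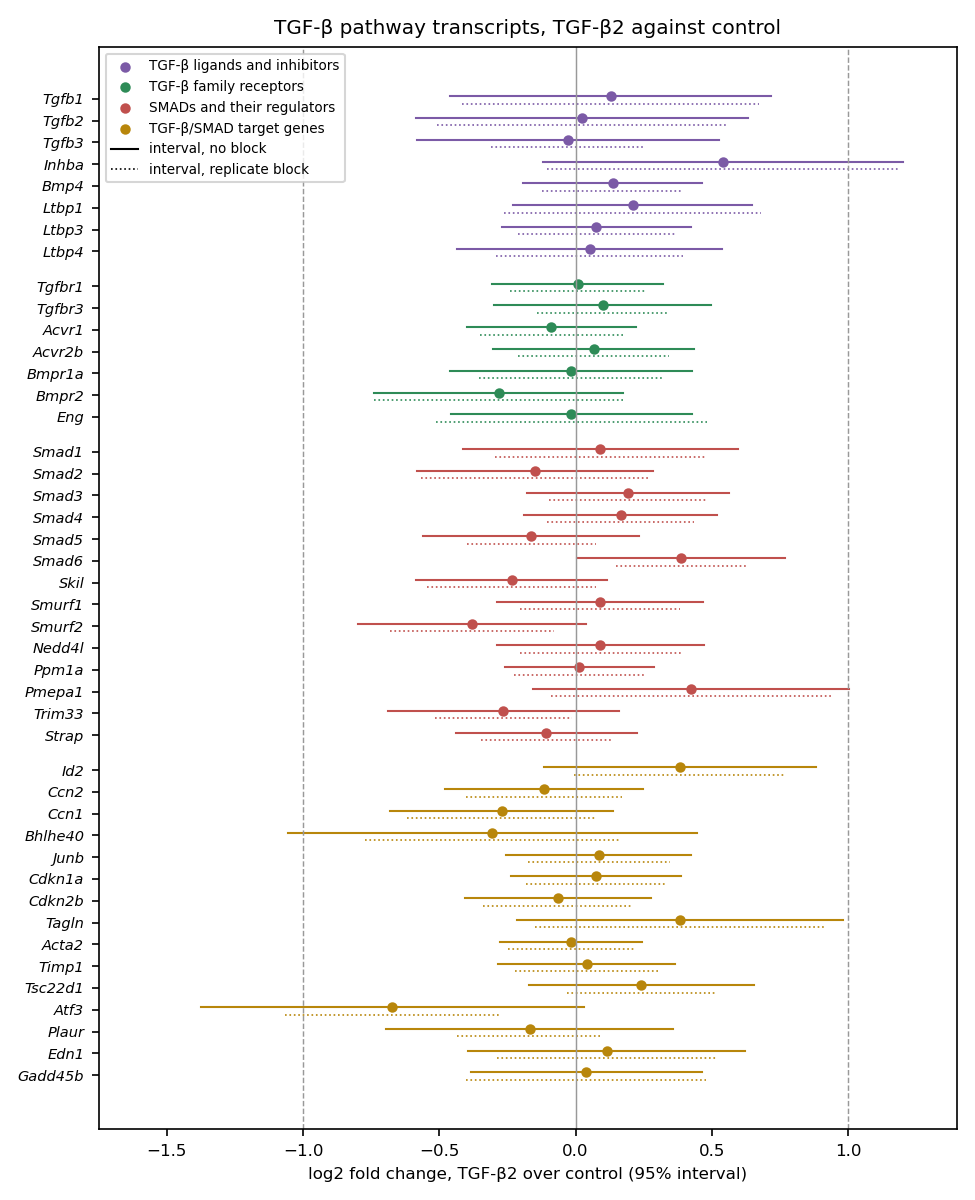
Log2 fold changes of TGF-β2 over control (x axis) for the tested genes of the 4 TGF-β pathway lists, 1 row per gene at its brightest tested probe, with 95% intervals from the fit with no block (solid) and with the replicate block (dotted). Dashed lines mark a 2-fold change. Smad6 is the only gene drawn whose solid interval lies off 0, from 0.0069 to 0.77, and the intervals of Inhba, Pmepa1, Atf3 and Bhlhe40 reach past a 2-fold change.

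Signalling from the receptors that does not pass through SMADs was covered by 15 tested genes, 8 above and 7 below 0, with a median of 0.05. Tab2, an adaptor of the kinase TAK1, had 0.27 (95% interval -0.10 to 0.63), and Pik3r1, the regulatory subunit of phosphatidylinositol 3-kinase, had 0.25 (-0.11 to 0.62). Both were higher in 4 of 4 pairs, while Mapk8, the kinase JNK1, was lower in 4 of 4 with -0.21 (-0.51 to 0.10). In all, 3 of the 15 were higher and 1 was lower in 4 of 4 pairs, beside 6.53% and 6.85% of all tested transcripts. The log2 fold changes ranged from -0.30 to 0.30, and 0 of the 15 had an unadjusted p under 0.05 in either fit.
Of 45 extracellular matrix genes with a probe, 15 were tested and 23 were detected on 0 of the 8 arrays. All 15 had a 95% interval inside a 2-fold change. Mmp14, a membrane-bound matrix metalloproteinase, had log2 signals of 10.35, 10.43, 10.17 and 10.47 with TGF-β2, against 10.25, 10.04, 9.84 and 9.82 in control cells, higher in each pair. Only the highest control array reached above the lowest TGF-β2 array, and the log2 fold change was 0.37 (95% interval 0.04 to 0.69, adjusted p = 0.9999). Thbs2, thrombospondin 2, had 0.27 (-0.06 to 0.60) and Eln, elastin, had 0.20 (-0.19 to 0.59), and both were also higher in 4 of 4 pairs. In all, 3 of the 15 matrix genes were higher and 0 lower in 4 of 4 pairs, beside 6.53% and 6.85% of all tested transcripts. Of the 15, 10 were above and 5 below 0 with a median of 0.04, and 0 passed the test.

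Of the fetal gene programme and hypertrophy markers, 24 were tested, 18 above and 6 below 0, with a median of 0.06, and 0 had an unadjusted p under 0.05 in either fit. The genes of lowest p included Xirp1, an actin-binding protein of the intercalated disc, with -0.23 (95% interval -0.59 to 0.13), and Fhl1, a LIM protein of the sarcomere, with 0.20 (-0.15 to 0.54). Tbx5, a cardiac T-box factor, had 0.26 (-0.22 to 0.73), with 2 of 4 pairs higher.
Of the sarcomere and calcium handling genes, 35 were tested, 15 above and 20 below 0, with a median of -0.02. Tnnc1, cardiac troponin C, had log2 signals of 12.44, 12.76, 12.65 and 12.18 with TGF-β2, against 12.71, 12.85, 12.88 and 13.04 in control cells. All 4 pairs were lower, by 0.09 to 0.86, and the log2 fold change was -0.36 (95% interval -0.71 to -0.02). Myoz2, a Z-disc protein that binds calcineurin, had -0.46 (-0.91 to -0.01) with 3 of 4 pairs lower. Cacna1d, an L-type calcium channel subunit, had 0.39 (-0.04 to 0.82) with 3 of 4 pairs higher, and -0.27 at another probe.

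Myoglobin, the oxygen store of the cardiomyocyte, showed the largest difference of all, and is named here after its values were seen. At the Mb probe of larger difference the log2 signals were 7.51, 7.33, 8.75 and 7.22 with TGF-β2, against 8.63, 8.32, 8.99 and 9.36 in control cells. The third TGF-β2 array lay above 2 control arrays, and without it the groups would not overlap. The log2 fold change was -1.12 ± 0.33 (SE, n = 4 each, 95% interval -1.86 to -0.39, adjusted p = 0.9999). Within the pairs it was -1.11, -0.99, -0.23 and -2.14, and a second Mb probe gave -0.78. The difference was -1.05 on the first chip and -1.19 on the second.

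**Figure D3:**
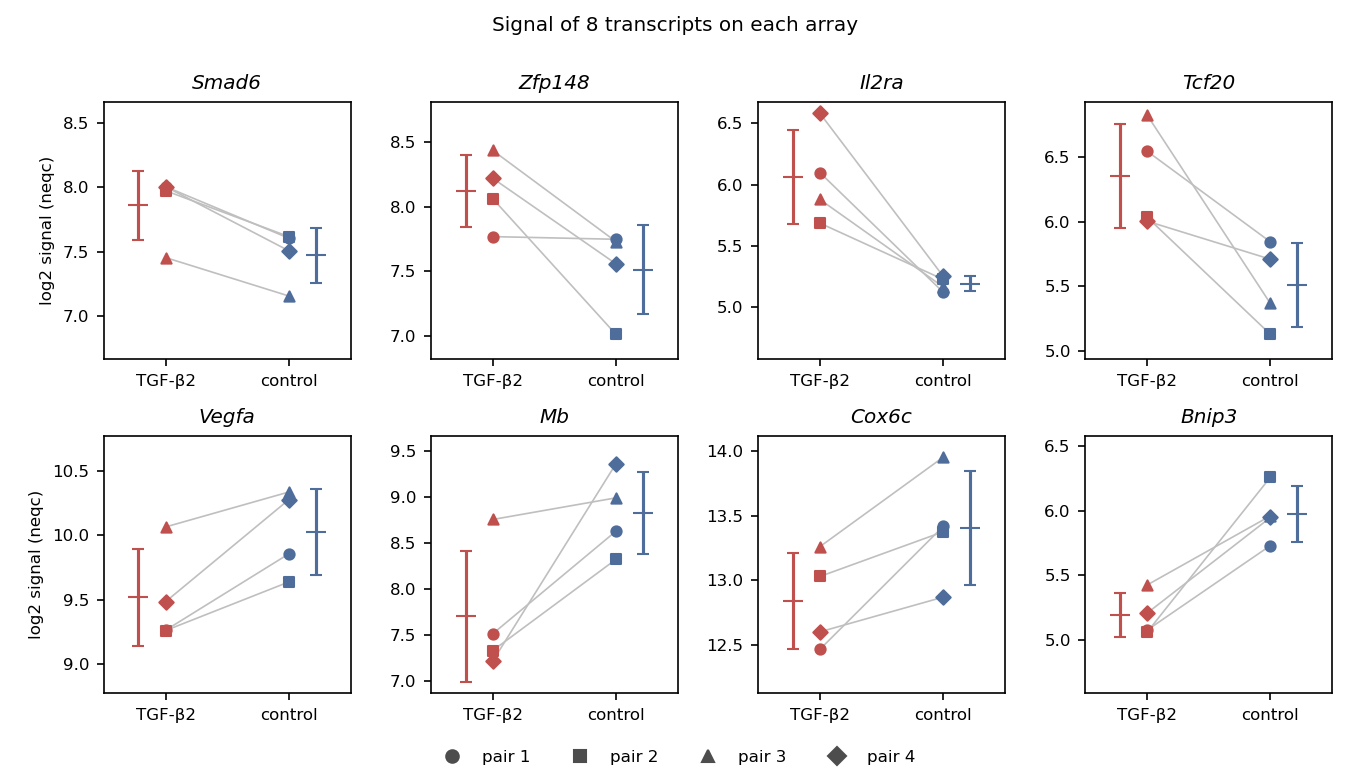
Normalized log2 signal (y axis) of 8 transcripts on each array, TGF-β2 on the left and control on the right of each panel, with lines joining the same-numbered arrays and bars at the mean ± SD (n = 4). Groups do not overlap for Zfp148, Il2ra, Tcf20 and Bnip3, and the third TGF-β2 array (triangle) is the lowest of its group for Smad6 and the highest for Zfp148, Tcf20, Vegfa, Mb, Cox6c and Bnip3.

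The arrays of the groups did not overlap for 83 transcripts that were higher with TGF-β2 (0.668%) and 84 that were lower (0.676%), and 125 of these 167 were detected on all 8 arrays. Together they were 1.34% of the tested transcripts. If arrays were exchangeable between groups, a share of 0.0286 would separate in 1 direction or the other. That share leaves out the pairing of the arrays, so the 1.34% cannot be judged against it. The transcripts below are therefore named as a description. The 10 of largest difference in each direction were mostly near the detection limit, since only Vgll4 and Zfp148 of these 20 were detected on every array. Vgll4, a cofactor of TEAD transcription factors, had log2 signals of 8.38, 8.50, 8.19 and 8.34 with TGF-β2, against 8.13, 5.87, 8.14 and 7.71 in control cells. The control array of pair 2 stood alone at 5.87, so the log2 fold change of 0.89 (95% interval -0.04 to 1.81) contains pair differences of 0.25, 2.63, 0.04 and 0.63. Zfp148, a zinc finger transcription factor, had 7.77, 8.06, 8.44 and 8.22 with TGF-β2, against 7.75, 7.01, 7.73 and 7.56 in control cells. Its log2 fold change was 0.61 (95% interval 0.17 to 1.06, adjusted p = 0.9999), with pair 1 differing by only 0.02.

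Il2ra, the α chain of the interleukin 2 receptor, was detected on 3 of 4 TGF-β2 arrays and 0 of 4 control arrays. Its log2 signals were 6.10, 5.69, 5.88 and 6.58 with TGF-β2, against 5.12, 5.23, 5.17 and 5.25 in control cells. As the control signals were not above background, the difference is given as at least 1.25-fold higher, measured against the lowest detected signal of each control array (fitted means 6.06 and 5.19, adjusted p = 0.9999). Such bounds, here and below, compare means without the spread between arrays, so they are no confidence limits.
Tcf20, a transcriptional coregulator, had 6.55, 6.04, 6.83 and 6.01 with TGF-β2, against 5.84, 5.13, 5.37 and 5.71 in control cells. It was detected on 4 TGF-β2 arrays and 1 control array, and so passed the detection filter through the TGF-β2 arrays. Its fitted log2 fold change of 0.84 (95% interval 0.35 to 1.34) is therefore no support for a difference. Its other tested probes gave -0.08 and -0.06, so the difference belonged to a single probe. The same held for Igf2r, the receptor for IGF2 and mannose 6-phosphate, with 0.65 at the probe chosen and 0.0033 at the other, and for Add3, γ-adducin of the membrane skeleton, where 3 TGF-β2 and 0 control arrays were detected at the probe chosen and the others gave 0.15 and -0.07. Among the remaining higher transcripts were Rfxank, a subunit of the RFX complex of MHC class II promoters (0.68), Fcho1, an adaptor of endocytosis (0.61), and the probe ILMN_1251123, which has no gene symbol (0.78). Fcho1 was detected on 4 TGF-β2 arrays and 1 control array, and Rfxank on 4 and 2. Both thus reached the detection filter mainly through the TGF-β2 arrays. The probe ILMN_2934792, with no gene symbol, had the lowest blocked p of those higher in 4 of 4 pairs. It was detected on 3 TGF-β2 and 0 control arrays, and so was tested only through the TGF-β2 arrays, with a bound of at least 1.13-fold. Matn4, the matrix protein matrilin 4, was not above background on any control array, and its bound was at least 1.07-fold.

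Bnip3, a mitochondrial protein of mitophagy and a known target of hypoxia-inducible factors, was detected on 0 of 4 TGF-β2 arrays and 4 of 4 control arrays. Its log2 signals were 5.07, 5.06, 5.42 and 5.21 with TGF-β2, against 5.73, 6.26, 5.96 and 5.95 in control cells, each pair lower by 0.54 to 1.20. All of these signals were close to background, and the difference is given as at least 1.16-fold lower (adjusted p = 0.9999). Bnip3 had the lowest unadjusted p of all tested transcripts in the fit with no block. It passed the detection filter only through the control arrays, so this rank is no support for a difference. In the blocked fit AI429214 and Nt5c1b had lower limma p (0.00017 and 0.00032, against 0.00056 for Bnip3).
AI429214, an expressed sequence, was by the same bound at least 1.27-fold lower. H2-M3, a class Ib molecule that presents formylated peptides, was at least 1.11-fold lower. Each was detected on 0 TGF-β2 and 4 control arrays, and so was also tested only through the control arrays. Nt5c1b, a cytosolic nucleotidase, was detected on 0 TGF-β2 and 3 control arrays, so it too was tested only through the control arrays. It had a bound of 1.03-fold. It was called in 1 alternative, in which signals were floored and quantile normalized in place of neqc (adjusted p = 0.0444). Because of how it entered the test, this call is no support for a difference. Since no TGF-β2 array was above background, no fold is read from that fit. The remaining lower transcripts included Odf2, of the centriole appendages (-0.68, and -0.0032 at another probe), Taf3, a subunit of TFIID (-0.65), Chac2, an enzyme of glutathione breakdown (-0.62), Gstcd (-0.60), Gch1, which opens tetrahydrobiopterin synthesis (-0.58, and -0.09 at another probe), and Cfap69 (-0.57, and 0.20 at another probe). Gstcd was detected on 1 TGF-β2 array and 4 control arrays, and Taf3, Chac2 and Cfap69 were each detected on 2 and 4. These transcripts thus reached the detection filter mainly through the control arrays.

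Transcripts detected on all arrays of either group and on none of the other were few. Of 25697 transcripts, 3 were detected on 4 of 4 TGF-β2 arrays and 0 of 4 control arrays, namely Wfdc12, Fndc3a and Olfr66, with bounds of at least 1.19-fold, 1.28-fold and 1.21-fold. In the other direction there were 4, namely Bnip3, AI429214, H2-M3 and Jak3, the kinase of the common cytokine receptor γ chain, for which the bound was 1.18-fold. Being bounds of means only, these values establish no minimum change, and none of these transcripts passed the test. At a detection p-value under 0.01 these counts were 1 and 4.

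Of the hypoxia and glycolysis genes, Bnip3 among them, 29 were tested, 8 above and 21 below 0, with a range from -0.78 to 0.28 and a median of -0.09. The medians of pairs 1, 2, 3 and 4 were 0.011, -0.14, 0.060 and -0.22, so that the pairs did not share a direction. Without Bnip3, 8 of 28 were above and 20 below 0. In the blocked fit 1 was higher and 4 were lower, 3 of them other than Bnip3, at an unadjusted p under 0.05, beside 2.95% and 3.11% of all tested transcripts. Vegfa, the angiogenic growth factor, had log2 signals of 9.26, 9.26, 10.06 and 9.48 with TGF-β2, against 9.86, 9.64, 10.34 and 10.28 in control cells. Every pair was lower with TGF-β2, by 0.27 to 0.79, although the third TGF-β2 array lay above 2 control arrays. The log2 fold change was -0.51 ± 0.22 (SE, n = 4 each, 95% interval -0.996 to -0.02, and -0.80 to -0.22 with the block, adjusted p = 0.805 there). A second Vegfa probe gave -0.48. Egln1, a prolyl hydroxylase that marks hypoxia-inducible factors for degradation, gave -0.33, -0.39 and -0.23 at 3 probes.

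Genes of endoplasmic reticulum chaperones and stress had 8 above and 16 below 0 of 24 tested, with a median of -0.11. The medians in pairs 1, 2 and 4 were -0.23, -0.27 and -0.10, and that of pair 3 was 0.10. Trib3, a pseudokinase induced by stress, had 6.56, 6.01, 7.34 and 6.31 with TGF-β2, against 7.17, 7.35, 7.17 and 6.94 in control cells, a log2 fold change of -0.60 (95% interval -1.15 to -0.06) with pair 3 the other way. Herpud1, which acts in the degradation of misfolded proteins, gave -0.37 and -0.35 at 2 probes, and Asns, asparagine synthetase, gave -0.27, -0.29 and -0.38 at 3 probes.
Cholesterol synthesis showed a similar split between pairs. Of 19 tested genes, 5 were above and 14 below 0, with a median of -0.13, and the medians of pairs 1, 2, 3 and 4 were -0.18, -0.16, 0.03 and -0.30. The enzymes Pmvk, Msmo1 and Fdps had log2 fold changes of -0.36 (95% interval -0.73 to 0.02), -0.30 (-0.65 to 0.04) and -0.27 (-0.61 to 0.06). AP-1 and immediate-early genes had 6 above and 9 below 0 of 15, with medians of -0.31 in pair 1 and 0.08 in pair 3. The third TGF-β2 array belongs to pair 3, whose median was above 0 in each of these lists. Without this array the medians were -0.24 for endoplasmic reticulum genes, -0.21 for cholesterol synthesis and -0.14 for AP-1 genes. Each of these shifts was smaller than the SD of the 4 pair medians. The array was singled out after its values were seen, and leaving out a TGF-β2 array of a pair above 0 tends to lower a median. These medians are therefore no support for a decrease, and the cause of the split between pairs was not tested.

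Oxidative phosphorylation was centred on 0, with 37 of 72 tested genes above 0, 35 below, and a median of 0.0017. In 4 of 4 pairs 1 was higher and 8 were lower, beside 6.53% and 6.85% of all tested transcripts. Cox6c, a subunit of cytochrome c oxidase, had log2 signals of 12.46, 13.03, 13.26 and 12.60 with TGF-β2, against 13.42, 13.38, 13.95 and 12.87 in control cells. It was lower in every pair, by 0.27 to 0.95, with a log2 fold change of -0.57 (95% interval -1.10 to -0.03, and -0.90 to -0.24 with the block). Atp5k, the e subunit of ATP synthase, had -0.59 (-1.15 to -0.03), and Ndufb2, a subunit of complex I, had -0.27 (-0.63 to 0.09), both lower in 4 of 4 pairs.
Cytosolic ribosomal protein genes were likewise centred, with 24 of 51 above 0 and a median of -0.0042. Rps24 did not overlap between the groups, at 14.40, 14.38, 14.43 and 14.43 with TGF-β2, against 14.89, 14.64, 14.87 and 14.60 in control cells, but its other probe gave -0.10 against -0.34 at this one. Of 21 fatty acid oxidation genes 9 were above and 12 below 0. Acadl, the long-chain acyl-CoA dehydrogenase, had the least spread, at 10.78, 10.79, 10.79 and 10.77 with TGF-β2, against 11.11, 11.03, 11.05 and 11.03 in control cells. The groups did not overlap and the log2 fold change was -0.28 (95% interval -0.53 to -0.02, adjusted p = 0.9999), with -0.25 and 0.08 at its other probes.

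Of 38 cell cycle and replication genes 18 were above and 20 below 0, with a median of -0.02, and all 38 had a 95% interval inside a 2-fold change. E2f2, an E2F transcription factor, had 0.33 (95% interval -0.09 to 0.74, and 0.35 at another probe). Its pair differences at the first probe were 0.13, 1.01, -0.10 and 0.27, largest in pair 2. Cdk1, the mitotic kinase, had -0.26 (-0.61 to 0.10). Of 20 CDK inhibitors and p53 targets 12 were above and 8 below 0, and 4 were higher and 0 lower in 4 of 4 pairs, beside 6.53% and 6.85% of all tested transcripts, with Ccng1, cyclin G1, at 0.22 (-0.10 to 0.54, and 0.0070 and 0.09 at other probes) and Mdm2, the ubiquitin ligase of p53, at 0.19 (-0.11 to 0.48, and 0.02 at another probe). Cdkn2a, which encodes the inhibitors p16 and ARF, had -0.26 (-0.67 to 0.15), and -0.19 at another probe.
Interferon-stimulated genes had 7 above and 12 below 0 of 19. Of the 6 smooth muscle markers tested, 4 were above and 2 below 0. Mylk, myosin light chain kinase, had 0.36 (95% interval -0.14 to 0.86) at its brighter probe and 0.35 at another. At the brighter probe its pair differences were 0.07, 0.98, -0.07 and 0.47, largest in pair 2. The intermediate filament gene Vim, a marker of mesenchymal cells, had 0.09 (95% interval -0.22 to 0.40).

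Genes that act in exosome release and in the ESCRT complexes, which sort cargo into vesicles, were followed because the cells were the source of the vesicles studied alongside them. Of 36 tested, 16 were above and 20 below 0, with a median of -0.02, and all 36 had a 95% interval inside a 2-fold change. In 4 of 4 pairs 2 were higher and 6 were lower, beside 6.53% and 6.85% of all tested transcripts. Chmp1a, an ESCRT-III subunit detected on 1 TGF-β2 and 2 control arrays, had -0.42 (95% interval -0.94 to 0.10, and -0.81 to -0.04 with the block), lower in 4 of 4 pairs. Tsg101, an ESCRT-I subunit, had log2 signals of 9.98, 10.28, 10.29 and 9.85 with TGF-β2, against 10.35, 10.51, 10.57 and 10.02 in control cells. It was lower in each pair by 0.17 to 0.37, with a log2 fold change of -0.26 (95% interval -0.63 to 0.11, and -0.50 to -0.02 with the block). The tetraspanin gene Cd63 gave -0.06, 0.16 and -0.24 at 3 probes. Smpd3, the neutral sphingomyelinase of ceramide-dependent vesicle budding, had 0.45 (-0.08 to 0.98) near the detection limit, and Rab27a, a GTPase of vesicle docking, did not overlap between the groups, at 7.70 to 8.01 with TGF-β2 and 7.50 to 7.69 in control cells (log2 fold change 0.21, 95% interval -0.08 to 0.50).

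Of the transcription regulators and vesicle proteins discussed with these data, 8 of 12 genes with a probe were tested, and all 8 were below 0 with a median of -0.09, where 49.1% of all transcripts were above 0. These genes were taken from the account of the study, so the count is no independent evidence of a direction. The medians of pairs 1, 2, 3 and 4 were -0.22, -0.17, 0.088 and -0.21, so pair 3 went the other way. Nfat5, Cd63, Hspa5, Gata4 and Jun turned sign when certain single arrays were left out. Nfat5, a transcription factor of the response to osmotic stress, had -0.0048 (95% interval -0.33 to 0.32) at its brightest probe. Its second tested probe gave 0.26 (-0.23 to 0.75), higher in 4 of 4 pairs (95% interval 0.02 to 0.50 with the block), so the sign depended on the probe. Hdac5, a histone deacetylase that holds back hypertrophic genes, gave -0.17, -0.13 and -0.31 at 3 probes. Fos and Jun, partners in AP-1, had -0.38 (-0.86 to 0.11, and -0.72 to -0.04 with the block) and -0.04 (-0.54 to 0.46). Gata4, a cardiac transcription factor, had -0.03 (-0.74 to 0.67), and Hspa5, the chaperone GRP78, had -0.13 (-0.85 to 0.60). Sp1, Myc, Pou5f1 and Esr1 were detected on too few arrays to be tested.

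**Figure D4:**
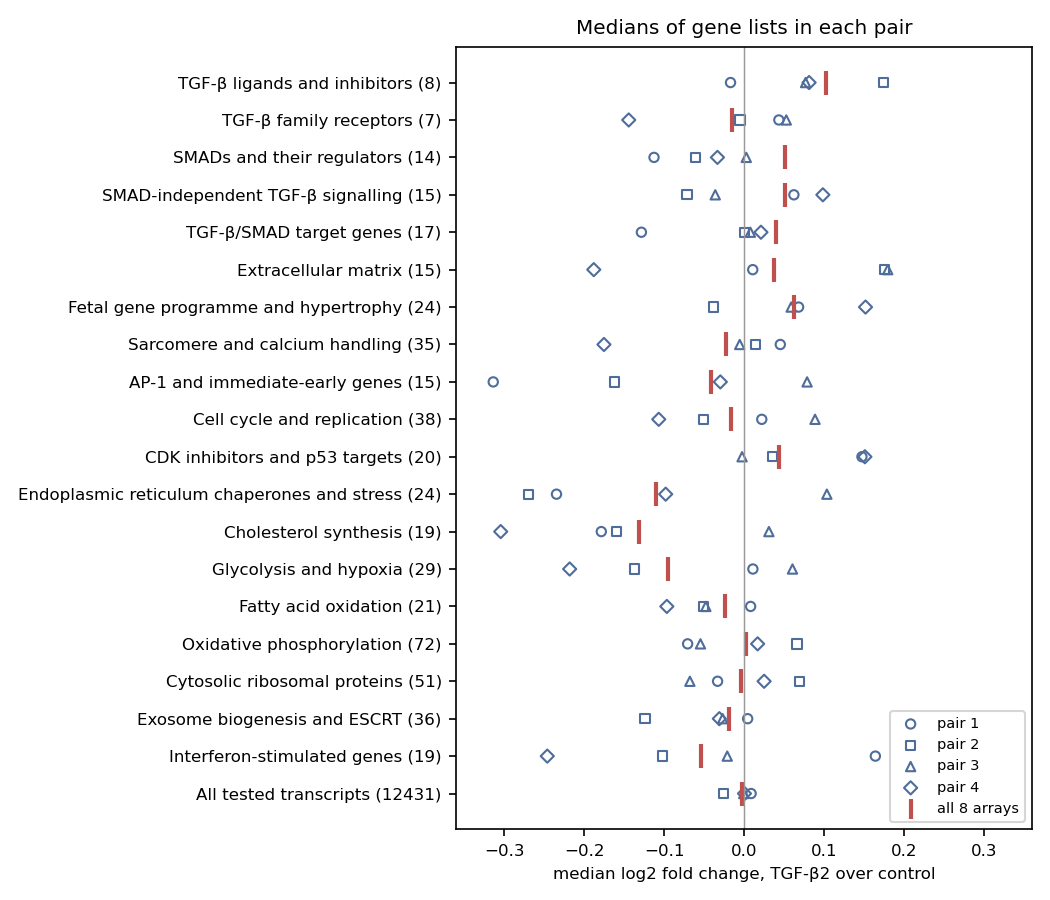
Median log2 fold change of TGF-β2 over control (x axis) for 19 gene lists and all tested transcripts, with the number of tested genes in brackets, in each of the 4 pairs (open symbols) and over all 8 arrays (red bars). Medians over all arrays lie between -0.13 (cholesterol synthesis) and 0.10 (TGF-β ligands and inhibitors), and for each list drawn the pairs fall on both sides of 0.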

How the data were processed

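Total RNA of HL-1 cells was hybridized to Illumina MouseRef-8 Beadchips. The authors deposited a non-normalized signal intensity and a detection p-value for each probe and array, with GenomeStudio named in the submitters' processing notes and no version given, and a normalized intensity that was used here as an alternative. Intensities of the 8 arrays were background corrected with the detection p-values, quantile normalized and put on the log2 scale by neqc (offset 16) in limma 3.58.1 under R 4.3.3. The deposited files hold no log2 values. Values were summarised with Python 3.11.15, pandas 2.3.3 and scipy 1.17.1. Of 25697 probes, 23978 had 1 gene symbol, 1719 had none and 0 had several, and 23962 symbols were updated by Entrez identifier to RefSeq (GRCm38.p6). No genome was used.

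Groups were compared by lmFit and eBayes, without a block, with Benjamini-Hochberg adjustment over 12431 probes at 0.05, and p-values measure the spread between flasks. The numbers of arrays limit the precision. Deviations from the group means of same-numbered arrays correlated at 0.201, 0.406, 0.512 and 0.385, each above 0.1, and the labels give the numbers, so the numbers were taken to pair the arrays and were also fitted as a block. The first TGF-β2 array correlated nearly as highly with the second control array (0.176), so pair 1 was little set apart by this measure. Where all arrays of a group were below background, the bound ("at least N-fold") uses, per array, the higher of the lowest signal among detected probes and the probe's own. It is a point estimate from group means that leaves out the spread between arrays.

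The text names the 10 probes in each direction of largest difference without overlap, probes of lowest blocked p among those of 1 direction in 4 of 4 pairs (5 each way), members of the 4 TGF-β pathway lists, up to 3 of lowest p from each other list, the genes the study discusses, and probes detected in 1 group only. A gene enters a list at its brightest tested probe. The transcripts and lists were chosen with earlier results of these data known. Alternatives were the block, the chip, all 11 arrays, the authors' normalized values, no neqc, other detection filters, array weights, another prior and leaving out each array. The fit was tested on simulated data.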

Additional observations from a re-analysis of the deposited data

Results flagged for a closer look

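Single arrays far from the other 3 of their group were looked for in 138 groups of 4 arrays, using Dixon's ratio at its 95% critical value, which chance passes in about 1 of 20 groups (6.9 of 138). There were 2, both the third TGF-β2 array. Smad6 had a log2 signal of 7.45 on it, against 7.97 to 8.004 on the other TGF-β2 arrays. Tagln had 7.63, against 8.56 to 8.60.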

How the results depend on the processing

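The count of called transcripts was 0 in each direction under every alternative run (0 to 0 when single arrays or pairs were left out), except that with a floor and quantile normalization in place of neqc 1 was lower, Nt5c1b (adjusted p = 0.0444), which no TGF-β2 array detected. As Nt5c1b entered the test only through the control arrays, this call is no support for a difference. Transcripts at an unadjusted p under 0.05 numbered 142 higher and 125 lower, and 367 and 387 with the replicate block, 360 and 420 with array weights, and 364 and 334 with no detection filter. The lower ones numbered 198 with the chip as a block and 254 on the first chip alone, and the second chip alone gave 82 and 67. Leaving out single arrays or pairs gave 106 to 465 higher and 103 to 607 lower, with 326 and 398 without the third TGF-β2 array, and under the block 319 and 244 without pair 1, 348 and 361 without pair 2, 465 and 607 without pair 3 and 246 and 285 without pair 4. Non-overlapping transcripts numbered 128 to 405 higher and 159 to 442 lower without single arrays, as fewer arrays overlap less, and 245 and 225 with no filter. Without the filter 1629 and 1649 had 1 direction in 4 of 4 pairs, and at a detection p under 0.01 there was 1 transcript detected with TGF-β2 only. The block changed no other call.

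Of values for named genes, 1564 kept their direction and side of the threshold and 47 turned sign, and 1, Nt5c1b as above, passed the threshold, and the cause was not tested. On the second chip alone Tgfb2 was -0.15, Tgfb3 0.13, Smad2 0.049, Ccn2 0.062, Nfat5 0.061, Hspa5 0.057, Cacna1d -0.018 and Jun 0.28, and on the first chip Tgfbr1 was -0.056. Array weights gave Tgfb2 -0.21, Tgfbr1 -0.063, Smad2 0.016 and Junb -0.022. The authors' normalized values gave Tgfbr1 -0.00013 and Acta2 0.062. Without single arrays the log2 fold change ranged from -0.031 to 0.36 for Tgfb1, -0.25 to 0.15 for Tgfb2, -0.16 to 0.17 for Tgfb3, -0.074 to 0.087 for Tgfbr1, -0.013 to 0.23 for Tgfbr3, -0.20 to 0.019 for Ccn2, -0.024 to 0.17 for Junb, -0.0062 to 0.13 for Cdkn1a, -0.031 to 0.0062 for Acta2, -0.079 to 0.064 for Nfat5, -0.17 to 0.049 for Cd63, -0.48 to 0.052 for Hspa5, -0.35 to 0.18 for Gata4 and -0.28 to 0.081 for Jun. Of list medians 10 moved by more than the spread of the pairs and 415 did not. The SMAD list (main median 0.05) moved in 5, from -0.031 on the first chip to -0.0054 without the third TGF-β2 array, and the ligands to 0.20 in 2. Signals near background limit the low transcripts.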
